A study of Homo sapiens with 14 samples.

Results

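The large histone gene cluster of human chromosome 6 was examined for chromatin accessibility as all deposited regions that start in the 1.95 Mb after position 26000000 of chromosome 6 (hg38), an interval that also holds butyrophilin, zinc finger and tRNA genes. These were 123 of 65774 regions, and all 123 passed the filter on low counts, which left 65771 regions for testing. The assay was ATAC-seq, where sequencing adapters are inserted into open chromatin by a transposase, and the cells were SUM149PT, a line of inflammatory breast cancer lacking oestrogen and progesterone receptors. There were 7 groups of 2 libraries: 6 clones of this line, named E, EM1, EM2, EM3, M1, M2, and the line itself, named Parental. No group was treated. The study concerns the epithelial-mesenchymal transition with its intermediate state, by its title, and what the letters of the clone names stand for is not spelled out. Each clone group is 1 clone, so a difference from Parental belongs to that clone. Whether replicate libraries were grown separately is not stated, and p-values here rest on the spread between libraries, which may be technical.

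Histone genes of this kind are transcribed in S phase, when new DNA has to be packed into nucleosomes, and their mRNAs end in a stem-loop in place of a poly(A) tail. The core histones H2A, H2B, H3 and H4 form the nucleosome and the linker histone H1 binds where DNA enters and leaves it. Many H2A and H2B genes stand in divergent pairs that share a promoter, and H2B promoters are known for an octamer bound by POU2F1 (Oct-1). The nuclear tRNA genes interspersed here are transcribed by RNA polymerase III from promoters inside the genes.

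The interval held 53 histone genes: 6 of type H1, 11 of H2A, 14 of H2B, 10 of H3 and 12 of H4. Of these, 42 had an accessible region within 1 kb of the gene start, or of either end for the genes whose start was not annotated. No such region was found for H1-6, H2BC3, H2BC9, H3C7, H3C8, H3C12, H4C6, H4C7, H4C9, H4C11 and H4C13. The members fell into 38 regions near a histone gene, 41 near a tRNA gene, 11 near another protein-coding gene and 33 with none of these within 1 kb. A region within 1 kb of both a tRNA gene and another coding gene counts as a tRNA gene region, which places the regions at the starts of HMGN4 and ABT1 there. The 12 regions near more than 1 histone gene cannot be divided between these genes. Histone and tRNA genes have near-identical copies elsewhere in the genome, and the counting of reads with several matches is not stated, so values at these genes carry that uncertainty.

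The promoter sequences of 6 histone genes are shown because the results turn on their regions: H1-1, H1-5 and H2BC6 were nearly without signal in M2, H1-2 and H1-3 were higher in M2, and H2BC11 belongs to the histone region with the highest signal per length. Each runs from 250 bases before to 50 after the annotated start, 5′ to 3′ on the gene's strand, from RefSeq (GRCh38.p14). Capitals mark the octamer ATTTGCAT, the TATA box TATAAA and the CCAAT box CCAAT, each searched on both strands, so that TTTATA and ATTGG are reverse forms. In H2BC11 TATA boxes on the plus and minus strands overlap in 1 run of capitals.
H1-1: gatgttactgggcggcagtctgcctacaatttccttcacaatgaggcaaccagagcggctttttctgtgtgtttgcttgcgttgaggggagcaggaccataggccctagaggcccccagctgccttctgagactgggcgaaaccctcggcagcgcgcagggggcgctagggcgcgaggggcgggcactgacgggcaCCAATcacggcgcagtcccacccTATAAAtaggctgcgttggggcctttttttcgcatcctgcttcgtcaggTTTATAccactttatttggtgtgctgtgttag
H1-5: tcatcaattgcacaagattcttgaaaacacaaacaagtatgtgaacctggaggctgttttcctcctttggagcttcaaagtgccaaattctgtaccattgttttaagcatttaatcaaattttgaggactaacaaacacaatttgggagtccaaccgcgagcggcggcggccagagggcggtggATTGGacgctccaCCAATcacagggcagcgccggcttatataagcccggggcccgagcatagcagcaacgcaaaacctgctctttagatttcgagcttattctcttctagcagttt
H2BC6: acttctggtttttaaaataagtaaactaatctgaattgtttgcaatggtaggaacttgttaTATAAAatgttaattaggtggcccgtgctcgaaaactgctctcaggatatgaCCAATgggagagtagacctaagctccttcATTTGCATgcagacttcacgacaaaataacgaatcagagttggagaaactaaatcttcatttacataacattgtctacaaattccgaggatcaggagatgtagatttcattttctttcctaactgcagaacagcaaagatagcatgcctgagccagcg
H1-2: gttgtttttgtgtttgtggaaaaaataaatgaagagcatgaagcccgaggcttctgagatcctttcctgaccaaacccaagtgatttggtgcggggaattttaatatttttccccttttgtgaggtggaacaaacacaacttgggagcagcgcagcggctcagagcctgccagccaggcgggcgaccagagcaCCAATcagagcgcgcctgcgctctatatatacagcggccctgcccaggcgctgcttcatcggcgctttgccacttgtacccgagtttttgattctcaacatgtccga
H1-3: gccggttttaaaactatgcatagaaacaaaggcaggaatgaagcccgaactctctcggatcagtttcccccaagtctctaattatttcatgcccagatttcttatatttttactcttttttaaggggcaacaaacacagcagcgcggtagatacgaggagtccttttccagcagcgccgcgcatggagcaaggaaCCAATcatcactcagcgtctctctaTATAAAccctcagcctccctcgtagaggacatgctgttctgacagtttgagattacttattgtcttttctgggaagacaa
H2BC11: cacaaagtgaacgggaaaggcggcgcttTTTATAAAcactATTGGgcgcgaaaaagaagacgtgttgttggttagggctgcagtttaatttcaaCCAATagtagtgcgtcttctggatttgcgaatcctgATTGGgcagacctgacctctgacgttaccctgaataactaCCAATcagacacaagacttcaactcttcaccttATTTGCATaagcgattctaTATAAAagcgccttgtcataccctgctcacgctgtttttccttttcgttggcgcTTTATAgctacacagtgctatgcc
The H1-1 promoter lies at chr6:26017738-26018037 on the minus strand, that of H1-5 at chr6:27867539-27867838 on the minus strand and that of H2BC6 at chr6:26183511-26183810 on the plus strand. The H1-2 promoter lies at chr6:26056421-26056720, that of H1-3 at chr6:26234938-26235237 and that of H2BC11 at chr6:27132746-27133045, all on the minus strand.

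Of 52 annotated promoters of the interval's histone genes, 21 (40.4%) held the octamer, 34 (65.4%) the TATA box and 45 (86.5%) the CCAAT box. Over all 35116 promoters of the same length in the table, these shares were 1.77%, 11.5% and 34.6%. The octamer was in 12 of 16 H2B promoters and 8 of 10 H2A promoters, in 1 of 10 H3 promoters, and in none of the 6 H1 and 10 H4 promoters. The 1 H3 promoter with it was an entry of H3C4 that covers the same bases as the H2AC7 promoter. Promoters of divergent pairs overlap, and some genes, such as H2BC5 and H2BC12, have more than 1 entry. The 52 promoters are therefore not all separate sequences. The CCAAT box was in all 42 promoters of types H1, H2A, H2B and H3 and in 3 of 10 of type H4. Of the promoters above, that of H1-1 held 2 TATAAA matches and 1 CCAAT box. The H1-5 promoter held no TATAAA match and 2 CCAAT boxes, and that of H2BC6 held 1 of each motif including the octamer. Variant TATA forms, such as tatataa in H1-5, were not searched. A match is a description of these letters and not evidence of a bound factor.

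The smallest library held 8138944 counts (E replicate 1) and the largest 16786823 counts (EM3 replicate 1), and values are given as CPM, counts scaled to a common library size after TMM normalisation. E replicate 1 stood apart from its group: across all regions its log2 CPM correlated at 0.542 and 0.543 with the M2 libraries, against 0.350 and 0.364 for E replicate 2. Among markers of cell identity, gene-start regions of 6 of 8 epithelial genes fell in M2 and 6 of 8 in M1 (the other 2 rose in M2), and those of 3 of 5 mesenchymal genes rose in each. The receptor genes ESR1 and PGR and all 4 endothelial markers had no gene-start region.

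In M2, 58 of the 123 regions differed from Parental, 44 higher and 14 lower, by edgeR's quasi-likelihood test at an adjusted p under 0.05. Over all regions tested 67% were called in this comparison, 32.1% higher and 34.9% lower. In M1, 29 members differed from Parental, 23 higher and 6 lower, against 42.4% of all regions (19% higher and 23.4% lower). The median log2 change of the members was 0.34 in M2 and 0.31 in M1, beside -0.01 in M2 and 0.01 in M1 over all regions, and 0.07 in M2 and 0.10 in M1 over the 373 regions within 5 Mb on either side of the interval. The members called made up 47.1% of the 123 in M2 and 23.6% in M1, below the share of all regions in both clones. The M1 count was 12 without Parental replicate 2, 16 without Parental replicate 1 and 17 without M1 replicate 1. Across the 7 groups 56 members differed, against 78.6% of all regions.

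The shares divided by the kind of gene nearby. In M2, 30 of 41 tRNA gene regions rose and 1 fell, while 6 of 38 histone gene regions rose and 5 fell. In M1, 16 of 41 tRNA gene regions rose and 2 fell, and no histone gene region was called by edgeR. DESeq2 called none of the 38 in M1 either, and 2 had an unadjusted edgeR p under 0.05, both higher. The other fits called at most 2 of them in M1, among them the region shared by H4C1 and H3C1 when only the libraries compared were fitted (log2 change 0.49, edgeR adjusted p = 0.0403) and H1-3 without either E library. Regions near other coding genes gave 1 higher of 11 in each clone, and regions with no gene within 1 kb gave 7 higher and 8 lower of 33 in M2, and 6 higher and 4 lower in M1.

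**Figure D1:**
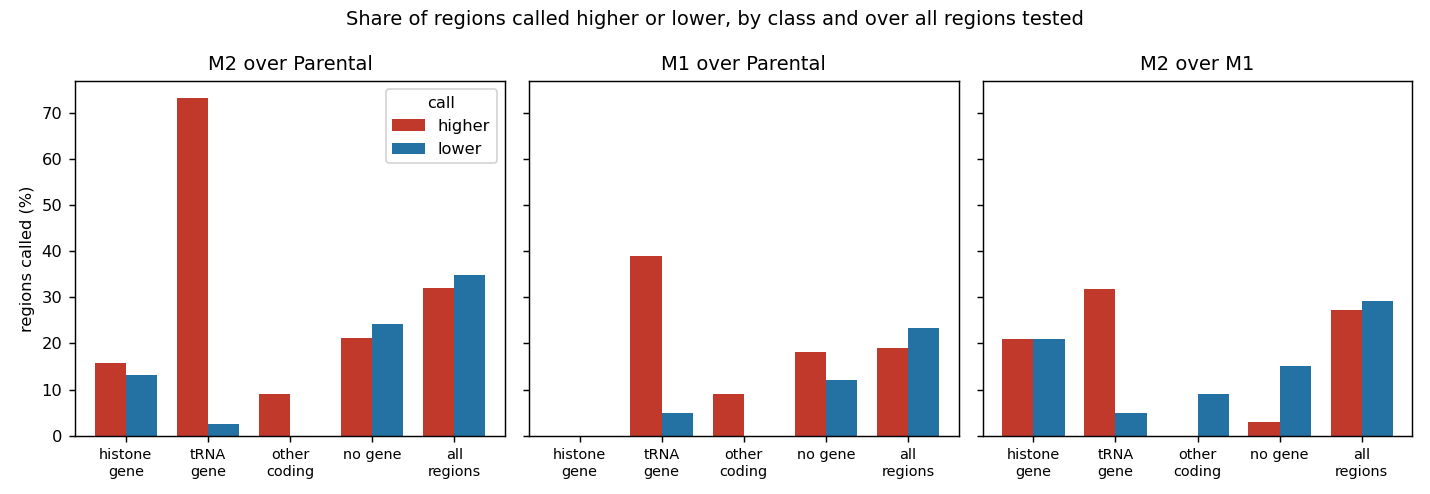
Bars give the percentage of regions called higher or lower (edgeR, adjusted p under 0.05) in the 38 histone gene, 41 tRNA gene, 11 other protein-coding and 33 no-gene regions and over all 65771 regions, for M2 over Parental, M1 over Parental and M2 over M1. The tRNA gene bar for higher regions stands at 30 of 41 in M2, and the histone gene bars are empty in M1.

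**Figure D2:**
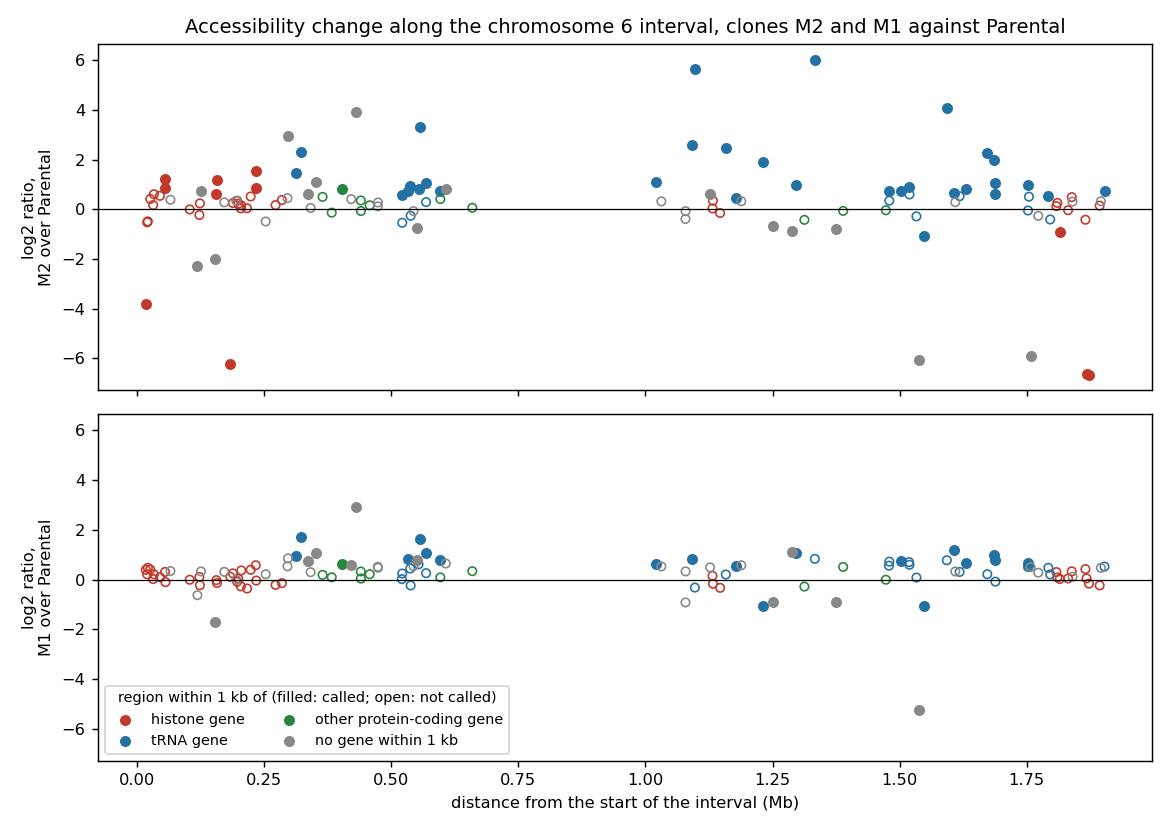
Points give the log2 ratio of each of the 123 regions for M2 (top) and M1 (bottom) over Parental against distance from the start of the interval in Mb, coloured by the nearby gene and filled where called. Histone gene regions sit at both ends and near the middle, tRNA gene regions between them, and 6 regions lie below -3 in M2.

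The most extreme histone gene changes were 4 regions that were nearly without counts in M2. The region at the start of H1-5 (chr6:27867234-27867701), which encodes a linker histone, had 0.229 and 0.0764 CPM in M2, against 12.9 and 16.9 CPM in Parental. These are 3 counts in M2 against 341 in Parental, a 109-fold lower signal (exact 95% interval 36.9 to 530, counting error only). The other 10 libraries held between 8.25 and 17.2 CPM, so the M2 libraries lay far below every other library. The log2 change was -6.64 ± 0.61 (SE, edgeR adjusted p = 1.09e-06), and against M1, where it was 13.5 and 17.2 CPM, it was -6.69 ± 0.61 (edgeR adjusted p = 2.04e-06).

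H3C11, an H3 gene, had its region (chr6:27871936-27872507) at 0.229 and 0.153 CPM in M2, against 19.2 and 19.9 CPM in Parental. The 4 counts in M2 against 447 in Parental made it 107-fold lower (exact 95% interval 41.5 to 394). It was the steadiest of the 4 across the remaining clones, whose libraries lay between 15.4 and 19.9 CPM. Its log2 change was -6.65 ± 0.33 (SE, edgeR adjusted p = 9.05e-09), and -6.49 ± 0.33 against M1 (edgeR adjusted p = 2.55e-08). This SE comes from the test statistic, and the counting interval above is wider.

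These 2 regions are neighbours in the table, 4.23 kb apart. On either side the signal was present in M2: the H2AC16 region, 1.84 kb before H1-5, had a log2 change of -0.42 (edgeR adjusted p = 0.255), and the region shared by H2AC17 and H2BC17, 20.49 kb after H3C11, had 0.14 (edgeR adjusted p = 0.689). Against M1, the H2AC16 region was called lower in M2 (log2 change -0.84). Counts of open fragments depend on the copies of DNA as well as on their openness, and from these counts fewer copies and closed chromatin cannot be told apart.

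H2BC6, an H2B gene, showed the same in another part of the interval. Its region (chr6:26183555-26183951) had 0.115 and 0.229 CPM in M2, against 15.8 and 13.2 CPM in Parental, which is 4 counts against 330 and 78.9-fold lower (exact 95% interval 30.5 to 291). The other libraries were spread more widely here, between 7.64 CPM in E replicate 1 and 18.7 CPM in E replicate 2, but none came near the M2 values. The log2 change was -6.23 ± 0.62 (SE, edgeR adjusted p = 2.01e-06), and -6.34 ± 0.62 against M1 (edgeR adjusted p = 3.33e-06). The nearest regions on both sides, 11.4 kb before and 4.72 kb after at H4C4, had log2 changes of 0.28 and 0.25 that were not called.

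H1-1, a linker histone gene, was low but not empty in M2. Its region (chr6:26017448-26017956) had 1.60 and 0.688 CPM in M2, against 14.3 and 16.5 CPM in Parental. All other libraries lay between 15.3 and 23.1 CPM, with the highest value in M1 replicate 2. The log2 change was -3.82 ± 0.32 (SE, edgeR adjusted p = 5.06e-07) and -4.21 ± 0.32 against M1 (edgeR adjusted p = 4.79e-07). The H3C1 region 2.33 kb away had a log2 change of -0.53 (edgeR adjusted p = 0.105). It was called lower with a replicate term (-0.54, edgeR adjusted p = 0.0258) and, without that term, against M1 (-0.74). The 4 losses were called under every alternative setting and with each library left out.

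**Figure D3:**
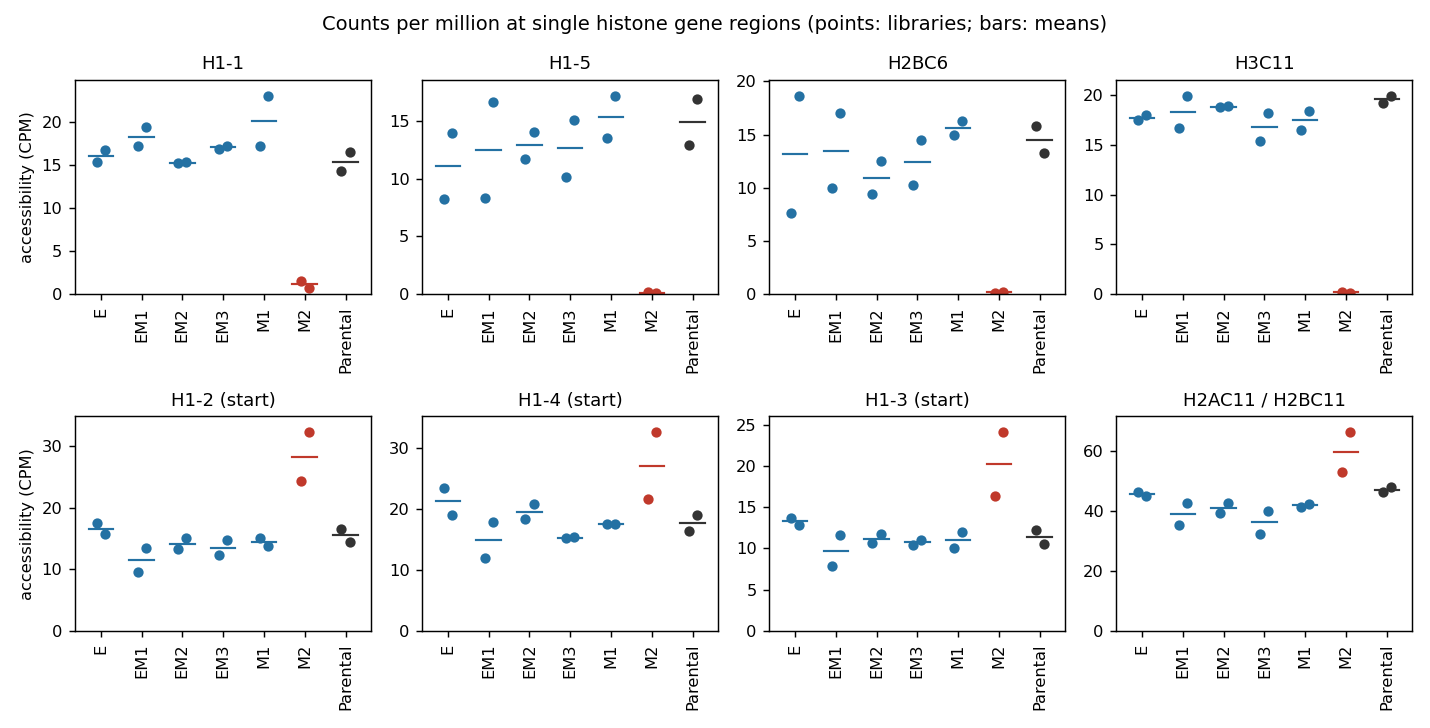
Points give CPM in each of the 14 libraries at 8 histone gene regions, bars the group means, with the clones left of Parental and M2 in red. In the top row M2 is at or near 0 for H1-1, H1-5, H2BC6 and H3C11, and in the bottom row M2 is highest for H1-2, H1-4, H1-3 and H2AC11/H2BC11.

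The H1 genes moved in both directions in M2. All 8 regions near an H1 gene were called, against 67% of all regions (32.1% higher, 34.9% lower). These were the 2 losses at H1-1 and H1-5 and 6 gains at H1-2, H1-3 and H1-4, which have 2 regions each. The latter genes encode further replication-dependent linker histones. The H1-2 start region (chr6:26056119-26056603) had 24.4 and 32.2 CPM in M2, against 16.6 and 14.4 CPM in Parental. The groups did not overlap, and the log2 change was 0.87 ± 0.22 (SE, edgeR adjusted p = 0.00378). A wider region downstream of that start (chr6:26054903-26056022) had 76.0 and 85.6 CPM in M2, against 32.3 and 36.7 CPM in Parental, with a log2 change of 1.23 ± 0.20 (edgeR adjusted p = 0.000112).

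The H1-3 start region (chr6:26234626-26235123) had 16.4 and 24.1 CPM in M2, against 12.2 and 10.5 CPM in Parental. This is a log2 change of 0.83 ± 0.25 (SE, edgeR adjusted p = 0.0103), which was no longer called without M2 replicate 2 (edgeR adjusted p = 0.142) or without Parental replicate 2 (edgeR adjusted p = 0.0879). A second region at the other end of H1-3 (chr6:26233695-26234233) changed more, with 27.4 and 23.2 CPM in M2, against 8.25 and 8.91 CPM in Parental (log2 change 1.55 ± 0.27, edgeR adjusted p = 0.000186). M1 lay between at this region, with 11.8 and 13.7 CPM, and its log2 change of 0.58 over Parental was not called (edgeR adjusted p = 0.100).

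At H1-4 the start region (chr6:26156206-26156670) had 21.6 and 32.6 CPM in M2, against 16.5 and 19.1 CPM in Parental. Its log2 change of 0.61 ± 0.24 (SE, edgeR adjusted p = 0.0361) rested on M2 replicate 2, without which it was 0.28 (edgeR adjusted p = 0.397), and it was not called with library totals either (0.50, edgeR adjusted p = 0.0799). The call was also lost without M1 replicate 1 or 2, EM3 replicate 2 or Parental replicate 1 or 2, with edgeR adjusted p between 0.0506 and 0.174. The region between H1-4 and H2BC5 (chr6:26157088-26158322), which holds the H2BC5 start and the end of H1-4, had 98.6 and 74.0 CPM in M2, against 31.1 and 44.2 CPM in Parental. Its log2 change was 1.19 ± 0.35 (edgeR adjusted p = 0.00884), and it was not called without M2 replicate 1 (edgeR adjusted p = 0.0648) or without Parental replicate 1 (edgeR adjusted p = 0.0842).

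The summed signal of the 8 H1 regions was 269 ± 4.43 CPM in M2, 168 ± 20.6 CPM in M1 and 156 ± 16.3 CPM in Parental (SD, n = 2 each). The sum includes both the gains and the losses, and the region that also holds the H2BC5 start. In M2 that region was higher in replicate 1, while both H1-2 regions and the starts of H1-3 and H1-4 were higher in replicate 2. These differences offset each other, so the SD of the M2 sum does not show the spread of single regions. In M2 over M1 the same 8 regions were called in the same directions, 6 higher and 2 lower, although H1-4 at its start was called under 14 of 21 alternatives, and without M2 replicate 2 its edgeR adjusted p was 0.416. Without M1 replicate 1, the calls over M1 were also lost at both H1-3 regions and at H2BC5/H1-4, and without M2 replicate 2 at the H1-3 start.

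The core histone genes gave fewer calls. The region that holds the H2BC5 start rose (log2 change 1.19) but is also near H1-4, so it is not among the 30 below. Of the 30 regions near a histone gene but not near an H1 gene, none rose in M2 and 3 fell with TMM scaling, all libraries and no replicate term. Over all regions 32.1% were higher and 34.9% lower. These 3 were H2BC6, H3C11 and the region shared by the divergent pair H2AC14 and H2BC14 (chr6:27814567-27815209). The last had 12.7 and 19.0 CPM in M2, against 28.5 and 31.2 CPM in Parental, a log2 change of -0.90 ± 0.29 (SE, edgeR adjusted p = 0.0131). It was not called without M2 replicate 1 (edgeR adjusted p = 0.111) or without Parental replicate 2 (edgeR adjusted p = 0.0513). None of the 8 regions near H4 genes was called in M2 with TMM scaling, all libraries and no replicate term. The region shared by H4C1 and H3C1 had an edgeR adjusted p of 0.0510 there, and with library totals it fell as well (log2 change -0.60, edgeR adjusted p = 0.0209), which made 4 lower. With a replicate term H4C8 was called higher (0.38, edgeR adjusted p = 0.0418) and the region shared by H4C1 and H3C1 lower (-0.49, edgeR adjusted p = 0.014). It was also called when scaled on the flanks and without E replicate 2, either library of EM1 or EM3 or Parental replicate 1, and H4C2 was called higher without Parental replicate 2. Without M2 replicate 1, 3 of the 30 regions rose and 2 fell. With only the libraries compared, 2 of the 30 rose and 3 fell. The 2 were H2AC4 (0.60, edgeR adjusted p = 0.0181) and the region shared by H2AC15 and H2BC15 (0.49, edgeR adjusted p = 0.0453). By type, the median log2 change in M2 was 0.85 for H1, 0.14 for H2A and for H2B, which share most of their regions, 0.22 for H3 and 0.10 for H4. With library totals, which moved the median of all regions by -0.11, the H4 median was -0.01 and the other 4 stayed above 0. Of the 30 regions, 20 had a log2 change above 0, and 17 with library totals.

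Per length, the highest histone region over all libraries was that of the divergent pair H2AC11 and H2BC11 (chr6:27132586-27133240) at 67.8 CPM per kb, followed by that of H2AC15 and H2BC15 at 60.8 CPM per kb. The lowest was that of H4C12 at 16.7 CPM per kb. The median was 36.4 CPM per kb for the 38 histone regions, 29.3 CPM per kb for the other 85 members and 25.2 CPM per kb for the rest of the series. H2AC11 and H2BC11 had 53.1 and 66.3 CPM in M2, against 46.4 and 47.9 CPM in Parental. Their log2 change of 0.34 ± 0.15 was not called (SE, edgeR adjusted p = 0.0653), whereas that over M1, with 41.5 and 42.5 CPM, was 0.51 ± 0.15 (edgeR adjusted p = 0.0130). That call in turn was lost with library totals and without M1 replicate 1, M1 replicate 2 or M2 replicate 2.

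**Figure D4:**
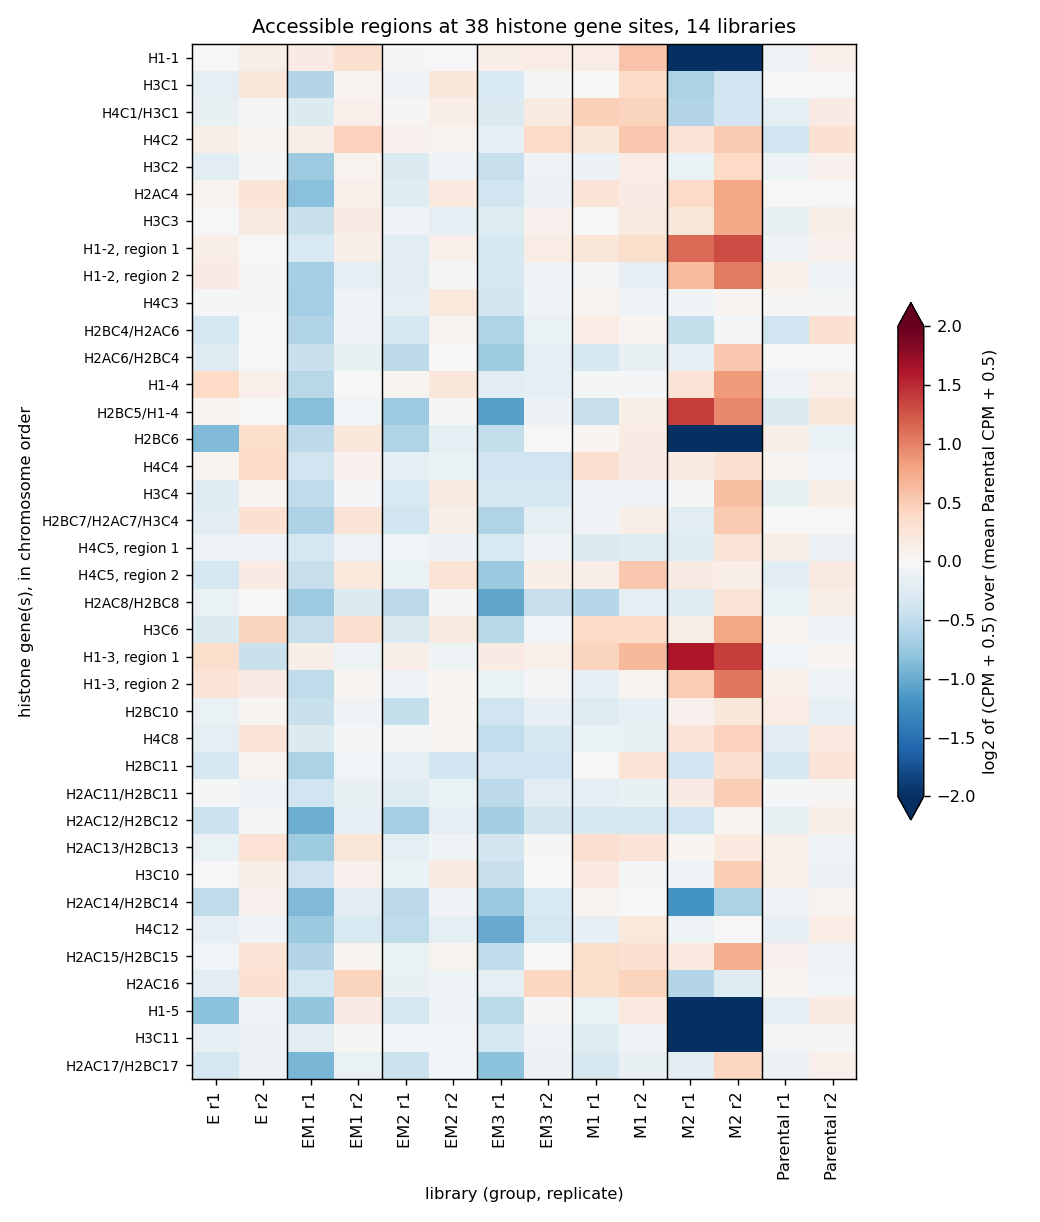
Rows are the 38 histone gene regions in chromosome order and columns the 14 libraries, clones left of Parental, coloured by log2 of (CPM + 0.5) over (mean Parental CPM + 0.5) and capped at 2 in either direction. In M2 the rows of H1-1, H2BC6, H1-5 and H3C11 are at the lower limit and those of H1-2, H1-3 and H2BC5/H1-4 are raised, and replicate 2 is above replicate 1 in 37 of the 38 rows in EM1 and 35 in EM3.

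Replicate libraries differed at histone gene regions in a way that all regions did not. Replicate 2 was above replicate 1 in 29 of 38 histone regions in E, 37 in EM1, 33 in EM2, 35 in EM3, 23 in M1, 32 in M2 and 24 in Parental. The median log2 ratio of replicate 2 over replicate 1 was 0.57 in EM1, 0.38 in EM3, 0.40 in M2 and 0.12 in Parental, while over all regions it lay between -0.03 and 0.02 in every group. The summed histone signal was 862 and 1068 CPM in the M2 libraries, against 793 and 868 CPM in the Parental libraries, so the first M2 library lay within the Parental range. With replicate number as a further term in the edgeR fit, 11 histone gene regions were higher and 7 lower in M2, 1 higher and 1 lower in M1, none higher and 2 lower in EM3, and none was called in E, EM1 or EM2. Of the 30 core histone regions, that fit called 5 higher and 5 lower in M2.

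The EM clones and E gave few or no calls. No member was called in EM1 or EM3 over Parental by edgeR without a replicate term, against 0.628% of all regions in EM1 (0.341% higher, 0.287% lower) and 3.11% in EM3 (1.85% higher, 1.26% lower). At an unadjusted p under 0.05, there were 2 members in EM1 and 11 in EM3, and DESeq2 called 0 in EM1 and 1 in EM3. Without a replicate term, no histone gene region was called in E, EM1, EM2 or EM3 by edgeR or DESeq2, and 3 in EM3 and 0 in each of E, EM1 and EM2 had an unadjusted edgeR p under 0.05. The median log2 change of the histone regions was -0.01 in E, -0.24 in EM1, -0.12 in EM2 and -0.25 in EM3 (0.02 in E with library totals). Scaled on the flanks, it was -0.14 in E, -0.32 in EM1, -0.22 in EM2 and -0.41 in EM3. Without that scaling 4 of the 38 regions had a log2 change above 0 in EM3 and with it 0 of them. The lowest single value was -0.74, in EM3.

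In E, 1 member fell and none rose, against 11.6% of all regions (5.27% higher, 6.31% lower). This region (chr6:26152588-26153070) lies 3259 bases before H1-4 and had 3.40 and 4.83 CPM in E, against 9.70 and 16.5 CPM in Parental. The log2 change was -1.67 ± 0.50 (SE, edgeR adjusted p = 0.0464), and the call was lost under 11 of 21 alternatives, among them leaving out either library of E, EM1, M1, M2 or Parental. Its signal was also low in M2, at 3.78 and 2.83 CPM (log2 change -2.003 ± 0.50, edgeR adjusted p = 0.00312), and in M1, at 3.72 and 4.29 CPM (-1.70 ± 0.49, edgeR adjusted p = 0.0121), where the call was lost without either M1 library or Parental replicate 2. EM1 at 10.3 and 16.0 CPM and EM3 at 11.9 and 22.8 CPM overlapped Parental. Without E replicate 1 no member was called in E, and without E replicate 2 there were 5. With library totals the 1 call in E was a different region, near the glutamine tRNA gene TRQ-CTG5-1, and was higher (log2 change 0.84, edgeR adjusted p = 0.0483).

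In EM2, 2 members rose, against 9.19% of all regions (3.02% higher, 6.17% lower). The region near the glutamine tRNA gene TRQ-CTG5-1 (chr6:27296339-27296644) had 11.6 and 10.4 CPM in EM2, against 5.35 and 5.35 CPM in Parental (log2 change 1.04 ± 0.25, edgeR adjusted p = 0.0187). The other region, 19638 bases from POM121L2 (chr6:27288078-27288739), had 10.8 and 12.3 CPM in EM2, against 5.80 and 6.36 CPM in Parental (0.92 ± 0.24, edgeR adjusted p = 0.0274). Both calls were lost without either library of EM2 or Parental, and without E replicate 2 the count was 4. The first was also higher in M1 (1.07 ± 0.25, edgeR adjusted p = 0.00337) and M2 (0.99 ± 0.25, edgeR adjusted p = 0.00324). The second was higher in M1 (1.11 ± 0.24, edgeR adjusted p = 0.00182) but lower in M2, at 3.09 and 3.44 CPM (-0.89 ± 0.25, edgeR adjusted p = 0.00712). These comparisons share the Parental libraries.

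The tRNA gene regions carried most of the gains. Of the 100 tRNA genes in the interval, 42 lay within 1 kb of a member. The summed signal of the 41 regions was 839 and 846 CPM in M2, 643 and 644 CPM in M1, and 462 and 428 CPM in Parental. The libraries of E at 552 and 498 CPM, and of EM2 at 504 and 554 CPM, also lay above Parental, while EM1 at 424 and 488 CPM and EM3 at 425 and 533 CPM overlapped it. The median log2 change was 0.74 in M2 and 0.60 in M1, and 16 regions were higher in both. Of 151 regions near tRNA genes outside the interval, 113 were higher and 9 lower in M2, with a median log2 change of 0.93. In M1, 30 were higher and 6 lower, with a median of 0.26. The higher ones made up 74.8% in M2, against 32.1% of all regions, and 19.9% in M1, near the 19% of all regions. The difference between tRNA regions inside and outside the interval was not tested.

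**Figure D5:**
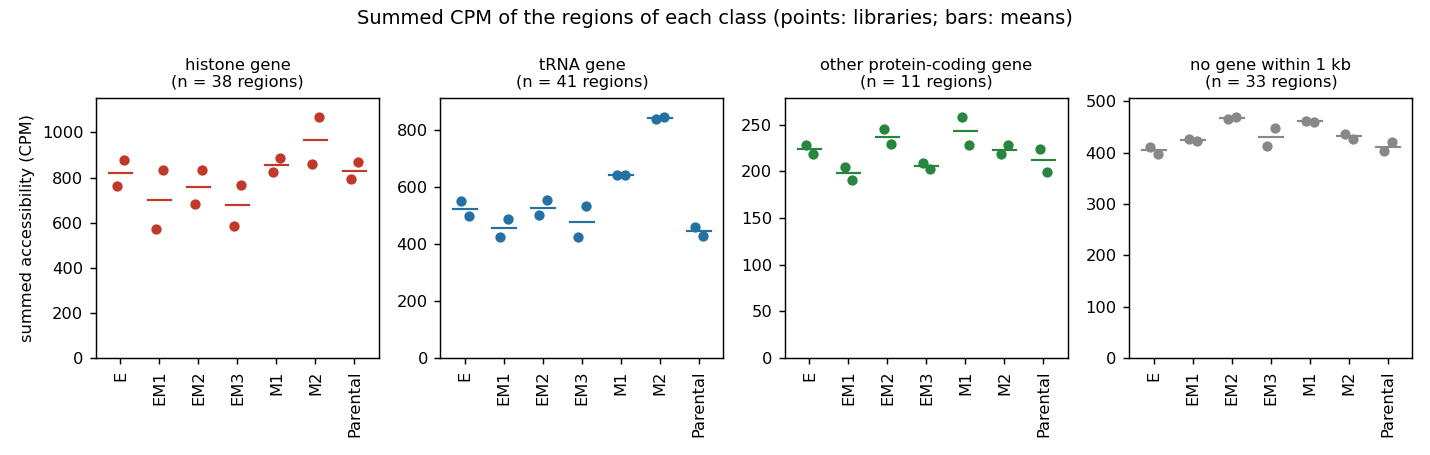
Points give the summed CPM of each library and bars the group means for the regions near histone genes, near tRNA genes, near other protein-coding genes and with no gene within 1 kb, clones left of Parental. The tRNA gene sums stand at 839 and 846 CPM in M2 and 643 and 644 CPM in M1, above both Parental libraries, while the histone gene sums of the M2 and Parental libraries overlap.

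The M1 count of tRNA gene regions leaned on single libraries. It was 18 with all libraries, 5 without Parental replicate 2, 7 without Parental replicate 1 and 10 without either M1 library. The M2 count was 31 with all libraries and 21 without Parental replicate 2, and with library totals it was 24.

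Several tRNA gene regions had a clear signal in M2 and almost none in Parental. The region near the serine tRNA gene TRS-GCT1-1 (chr6:27097183-27097543) had 17.8 and 13.9 CPM in M2, against 0.272 and 0.339 CPM in Parental, a 50.3-fold higher signal (exact 95% interval 24.2 to 126 for 337 against 7 counts). Its log2 change was 5.64 ± 0.91 (SE, edgeR adjusted p = 0.000114) and 5.96 ± 0.93 against M1, which had 0.213 and 0.264 CPM (edgeR adjusted p = 0.000148). All other clone libraries were below 0.5 CPM except E replicate 1 at 3.40 CPM.

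Near TRX-CAT1-5 (chr6:27333135-27333408), M2 had 9.51 and 8.86 CPM, against 0.181 and 0.0848 CPM in Parental. The 199 counts against 3 give a ratio of 69.4 (exact 95% interval 23.4 to 339), and the log2 change was 6.01 ± 0.83 (SE, edgeR adjusted p = 3.27e-05). Here too E replicate 1 was the next highest library, at 1.46 CPM.

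The region near the lysine tRNA gene TRK-TTT4-1 and TRX-CAT1-6 (chr6:27592550-27592991) had 26.2 and 19.7 CPM in M2, against 1.09 and 1.61 CPM in Parental (log2 change 4.07 ± 0.56, edgeR adjusted p = 3.33e-05). M1, at 1.49 and 3.04 CPM, was not called there (0.78 ± 0.58, edgeR adjusted p = 0.316). Near the lysine tRNA gene TRK-CTT2-4 (chr6:26556518-26556952), both M clones were higher: 39.6 and 34.3 CPM in M2 and 10.1 and 12.9 CPM in M1, against 3.54 and 3.90 CPM in Parental. The log2 changes were 3.31 ± 0.50 in M2 (edgeR adjusted p = 6.61e-05) and 1.63 ± 0.49 in M1 (edgeR adjusted p = 0.0160). The M1 change was not called without M1 replicate 2 or either Parental library.

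Other tRNA gene regions divided differently between the M clones. Near the histidine tRNA gene TRH-GTG1-5 (chr6:27157981-27158406), M2 had 21.99 and 14.2 CPM and M1 3.83 and 3.77 CPM, against 3.63 and 2.97 CPM in Parental. The log2 change of M2 was 2.45 ± 0.41 over Parental (edgeR adjusted p = 0.000154) and 2.25 ± 0.40 over M1 (edgeR adjusted p = 0.000425), and M1 did not pass the test against Parental. The region near the leucine tRNA gene TRL-CAA2-1 (chr6:27605372-27606380) was highest in M1, with 18.4 and 22.7 CPM in M2 and 31.4 and 28.9 CPM in M1, against 13.3 and 13.1 CPM in Parental. It rose by 1.19 ± 0.20 in M1 (log2, edgeR adjusted p = 0.000279) and by 0.64 ± 0.20 in M2 (edgeR adjusted p = 0.0110), the M2 call being lost without M2 replicate 2 or Parental replicate 2. Near the arginine tRNA gene TRR-TCG2-1 (chr6:26322585-26323208), M2 had 25.7 and 31.8 CPM and M1 15.8 and 22.7 CPM, against 4.35 and 7.38 CPM in Parental. The call in M2 (2.29 ± 0.64, edgeR adjusted p = 0.00663) was lost without Parental replicate 1, and that in M1 (edgeR adjusted p = 0.0451) when scaled on the flanks or without any 1 library of M1, M2 or Parental.

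In all, 10 members were above a log2 change of 2 in M2, and 8 of them were tRNA gene regions. The share of all regions above this limit was not counted. E replicate 1 was above both Parental libraries at 10 of these 10 regions and above E replicate 2 at 9, and E replicate 2 was above both Parental libraries at 7. These regions were chosen by their M2 values, and across all regions E replicate 1 also correlated more with M2 than E replicate 2 did. None of the tRNA gene regions was above 2 in M1.

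A few tRNA gene regions went the other way. The region near the glutamine tRNA gene TRQ-CTG2-1 (chr6:27548459-27548821) fell in both M clones, to 5.96 and 5.12 CPM in M2 and 5.42 and 5.88 CPM in M1, against 12.8 and 10.6 CPM in Parental. Its log2 change was -1.08 ± 0.23 in M2 (edgeR adjusted p = 0.00116) and -1.04 ± 0.23 in M1 (edgeR adjusted p = 0.00256). The region near the leucine tRNA gene TRL-TAA4-1 (chr6:27230236-27230653) separated the M clones, with 17.4 and 13.5 CPM in M2 and 1.38 and 2.51 CPM in M1, against 4.35 and 3.99 CPM in Parental. M2 was higher than M1 by a log2 change of 2.94 ± 0.35 (edgeR adjusted p = 1.61e-05). The lower value of M1 against Parental was not called with only the libraries compared or without M1 replicate 1 or either Parental library.

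Among the other genes of the interval, butyrophilins, which include ligands of gamma delta T cells, had regions at 5 of 6 starts and none at BTN1A1. BTN3A1 (chr6:26402409-26402613) rose to 13.7 and 13.98 CPM in M2 and 11.4 and 12.7 CPM in M1, against 7.89 and 7.89 CPM in Parental. The log2 changes were 0.81 ± 0.21 in M2 (edgeR adjusted p = 0.00351) and 0.61 ± 0.21 in M1 (edgeR adjusted p = 0.0293). The M1 call was lost when scaled on the flanks, with only the libraries compared, and without M1 replicate 2 or either Parental library. BTN2A1, BTN2A2, BTN3A2 and BTN3A3 were not called in any comparison with Parental. A region 8378 bases from BTN3A3 (chr6:26431390-26432126) had 25.8 and 21.4 CPM in M2 and 17.9 and 5.81 CPM in M1, against 1.72 and 1.36 CPM in Parental. It rose by 3.93 ± 0.71 in M2 (edgeR adjusted p = 0.000297) and by 2.92 ± 0.71 in M1 (log2, edgeR adjusted p = 0.00441), although without M1 replicate 1 the M1 change was not called.

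HMGN4, which encodes a nucleosome-binding protein, lies with 2 tRNA genes within 1 kb of its region (chr6:26537251-26538131). That region had 66.9 and 69.3 CPM in M2, against 34.2 and 36.4 CPM in Parental (log2 change 0.95 ± 0.18, edgeR adjusted p = 0.000479). A second region near HMGN4, starting at position 26538203, had 289 and 364 raw counts in M2, against 376 and 457 in Parental. This second region was not called over Parental in M2 or M1. The region before ABT1 and TRY-GTA6-1 (chr6:26595699-26596185) had 20.5 and 24.0 CPM in M2 and 25.2 and 21.9 CPM in M1, against 13.97 and 13.2 CPM in Parental. Its log2 changes were 0.72 ± 0.19 in M2 (edgeR adjusted p = 0.00539) and 0.80 ± 0.19 in M1 (edgeR adjusted p = 0.00475). A second region near ABT1, starting at position 26596648, had 101 and 211 raw counts in M2, against 114 and 125 in Parental. It was not called over Parental in M2 or M1 either. The starts of the zinc finger genes ZNF184 and ZNF322 and of POM121L2 were not called in any comparison with Parental, nor was that of ZNF391, which was lower in M2 than in M1 (-0.58 ± 0.22, edgeR adjusted p = 0.0376), a call lost when scaled on the flanks and without M1 replicate 1, either M2 library or Parental replicate 1. A region inside PRSS16 (chr6:27250964-27252138) fell to 49.5 and 37.1 CPM in M2 and 38.1 and 35.9 CPM in M1, against 71.0 and 66.6 CPM in Parental. The log2 changes were -0.67 ± 0.17 in M2 (edgeR adjusted p = 0.00354) and -0.90 ± 0.17 in M1 (edgeR adjusted p = 0.000871), and the M2 call was lost without M2 replicate 2 (-0.48, edgeR adjusted p = 0.0538). No start region was found for HFE, SLC17A1, SLC17A2, SLC17A3, SLC17A4 or PRSS16, and that of TRIM38 lies before the interval.

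Away from genes, 2 regions were nearly without counts. One (chr6:27538358-27538672), 65253 bases from ZNF184, had 0 and 2 counts in the M2 libraries and 2 and 2 in the M1 libraries, against 88 and 64 in the Parental libraries. The signal was 72.7-fold lower in M2 (exact 95% interval 19.8 to 606) and 40.9-fold lower in M1 (15.6 to 152). EM2 at 3.08 and 2.81 CPM was below both Parental libraries at 7.98 and 5.43 CPM. The other (chr6:27757299-27757641) had 0 and 3 counts in M2, against 105 and 96 in Parental, a 64.1-fold lower signal (exact 95% interval 21.6 to 313), while M1 at 12.8 and 12.3 CPM lay above Parental at 9.52 and 8.15 CPM without a call (edgeR adjusted p = 0.222).

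Set directly against each other, M2 and M1 differed at 38 members, 22 higher and 16 lower in M2, against 56.3% of all regions. With library totals the split was 15 higher and 20 lower, since that scaling moved the median of all regions by -0.15. Without M1 replicate 1 the count was 23. Of the 38 histone gene regions, 8 were higher and 8 lower in M2, and with library totals 5 were higher and 8 lower. Their 16 calls became 9 without M1 replicate 1 and 10 without M2 replicate 2. The lower ones include, beside those lost in M2, H3C1, the region shared by H4C1 and H3C1, and H2AC16, and the higher ones H4C8 and H2AC11/H2BC11 beside the 6 H1 regions. The H4C8 call was kept under 10 of 21 alternatives, and those of H3C1 and H2AC16 under 17 each. The region shared by H4C1 and H3C1 had 16.3 and 18.9 CPM in M2 and 34.7 and 33.8 CPM in M1, a log2 change of -0.96 (edgeR adjusted p = 0.00154).

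Other genes of histone supply were counted from lists, each by the region with the highest mean signal within 1 kb of its start. Where no start was annotated, either end of the gene was used. Outside the interval, 8 regions served 11 of 18 replication-dependent histone genes, and in M2 6 rose and 1 fell, against 32.1% of all regions higher and 34.9% lower. The 6 were those of the chromosome 1 cluster, with log2 changes between 0.80 (H4C15) and 1.15 (H2AC20, H2AC21 and H2BC21), and H4C16 on chromosome 12 fell (-1.98, edgeR adjusted p = 1.99e-05). Of 10 replication-independent histone genes, 7 rose and 2 fell in M2, between a log2 change of 1.77 at H2AX, a variant phosphorylated at DNA breaks, and -1.56 at H2AJ. Of 27 factors of histone gene expression and mRNA processing, 14 rose and 0 fell, and of 23 S phase and division genes, 14 rose and 1 fell, in M2. In M1 these 4 lists gave, in the same order, 0 higher and 1 lower, 2 higher and 0 lower, 3 higher and 2 lower, and 0 higher and 2 lower, against 19% of all regions higher and 23.4% lower. The median log2 changes in M2 were 0.89, 0.86, 0.50 and 0.56, beside -0.01 over all regions. For the 30 regions chosen in this way for the interval's histone genes it was 0.17, and 3 rose and 5 fell. These 30 include H1 gene regions and are not the 30 core histone regions described above.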

How the data were processed

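ATAC-seq was run on 14 libraries of SUM149PT cells, 2 for each of 6 clones and of the parental line. The deposited table gives raw read counts per region for each library, from the authors. Per the submitters' processing notes, the build was hg38 and the tools named, with no role given, include Bowtie2 (2.2.6), featureCounts, MACS2 (2.1.1) and cutadapt (1.9.1). How reads with several matches were treated is not stated. The deposited peak lists were not used.

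Counts were scaled by TMM and tested with edgeR 4.0.16 (R 4.3.3) by its quasi-likelihood test over all 14 libraries with group means. The filter was filterByExpr with a minimum count of 10, and p-values were adjusted by Benjamini-Hochberg over 65771 regions. Called means an adjusted p under 0.05. Log2 changes used edgeR's default prior count, and a prior count of 2 served only for the log2 CPM of correlations and flank scaling. The common biological coefficient of variation was 0.208. Intervals on ratios of counts are exact binomial at 95%. The alternatives were DESeq2 1.42.0, other scalings, no filter, a replicate block, a log2 limit of 1, only the libraries compared, scaling on flanking regions within 5 Mb, and leaving out each library. The fits were also run on simulated counts in which few regions differed. That setting is unlike M2, where 67% of all regions were called, so no result here rests on it.

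Regions were given to genes within 1 kb, with starts, names and promoters from RefSeq. Named were up to 5 called members with the largest and 5 with the smallest changes in each comparison, the H1 regions and the starts of 19 further genes of the interval. Other regions in the text, among them H2AC11/H2BC11, H2AC14/H2BC14 and H4C1/H3C1, were chosen after their values were seen. The members and gene lists were chosen with earlier results of these data known, and the tRNA gene class was added after the member list was seen. Replicate numbers were not taken to pair libraries.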

Additional observations from a re-analysis of the deposited data

How the results depend on the processing

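Of 47 named region and comparison pairs, 32 were called under every alternative, 15 were lost under at least 1 and 0 reversed. Of the members called, 37 of 58 in M2 over Parental, 19 of 38 in M2 over M1, 9 of 29 in M1 over Parental, 0 of 2 in EM2 and 0 of 1 in E were called under every alternative. With 1 library left out at a time, the count of called members was 43 to 60 in M2, 12 to 32 in M1, 23 to 38 in M2 over M1, 0 to 5 in E, 0 to 0 in EM1, 0 to 4 in EM2, 0 to 1 in EM3 and 47 to 62 across the 7 groups. A group left with 1 library was assumed to vary like the others. With a log2 limit of 1 the counts were 29 in M2, 13 in M1, 18 in M2 over M1 and 1 in EM2, because the limit removes smaller changes. Library totals gave 4 in EM2, DESeq2 gave 4 in EM2 and 1 in EM3, and a fit of only the libraries compared gave 2 in EM3; the cause was not tested. Library totals moved the median of all regions by -0.11 in M2 over Parental and -0.15 in M2 over M1. The summed level of all members, 1971 CPM in E, 2202 CPM in M1, 2463 CPM in M2 and 1899 CPM in Parental, was 2246 CPM in M1 and 2265 CPM in M2 with library totals, 1938 CPM in E and 2243 CPM in M1 with DESeq2 size factors, and 1898 CPM in E, 2171 CPM in M1 and 1996 CPM in Parental when scaled on the flanks.

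The replicate numbers share no stated source, and the deviations of same-numbered libraries correlated above 0.1 in 19 of 21 group pairs, between 0.02 (E with M1) and 0.59 (EM1 with EM3). All of these correlations were positive, so a shared effect of the replicate number is possible, and its source was not tested. The main fit did not treat the libraries as paired, and the counts of calls depend on this choice. With a replicate block the members called were 70 in M2, 41 in M1, 43 in M2 over M1, 4 in E, 8 in EM2, 3 in EM3 and 74 across the 7 groups.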
